A study of Bos grunniens with 3 samples.

Results

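SPARC, POSTN, CCN2, DCN and ABI3BP encode secreted proteins of the extracellular matrix that act on cells and on growth factors more than they bear load. The 5 genes were taken by symbol from the 26924 genes of the count tables, each with exactly 1 row (ENSBGRG00000008993, ENSBGRG00000021859, ENSBGRG00000021557, ENSBGRG00000002168 and ENSBGRG00000003226, in that order). The scapular skin of Tianzhu white yaks, which were healthy and aged about 2 years, was sequenced as 10x Genomics single-cell 3′ libraries, 1 labelled anagen (growth), 1 catagen (regression) and 1 telogen (rest). No treatment or allele was involved, and all 3 preparations passed through dispase, plucking of single hair follicles and trypsin. With 1 library per stage, differences between stages cannot be told apart from differences between animals or preparations. No test between stages was therefore possible. Clusters were defined from the same cells and are described without a test, as a value in each library, and the intervals given are 95% exact intervals that cover counting error only. The libraries shared 40 to 49 cell barcodes in each pair.

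The question here was how the genes are divided between the epithelial cells of the follicle and cells that express fibrillar collagen. SPARC is a calcium-binding glycoprotein that binds collagen. POSTN (periostin) binds integrins and collagen and is known from remodelling skin. CCN2, also known as connective tissue growth factor, is a target of YAP and TEAD and of TGF-beta. DCN (decorin) is a small leucine-rich proteoglycan that coats collagen fibrils, binds TGF-beta and is a classical fibroblast marker, and ABI3BP is a matrix protein that binds ABI3. The hair follicle is an epithelial organ whose mesenchyme is the dermal papilla and the dermal sheath.

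Of 38551 cells with at least 200 genes, 36554 were called epithelial, with at least 10 UMIs (unique molecular identifiers, 1 per captured molecule) over 12 keratin genes and no UMI of COL1A2, COL3A1, PECAM1, CDH5 or PTPRC. COL-positive cells, with at least 2 UMIs each of COL1A2 and COL3A1, were rare. There were 28 in anagen, 1 in catagen and 2 in telogen, or 0.234% (0.155 to 0.337, Clopper-Pearson), 0.00829% (0.00021 to 0.0462) and 0.0138% (0.00167 to 0.0498) of the kept cells. The contrast of the compartments therefore rests on anagen, with 150007 UMIs from 28 COL-positive cells and 79786932 from 11500 epithelial cells. In those COL-positive cells LUM and COL6A1, fibroblast matrix genes that the gate did not use, reached 407 and 393 CPM (UMIs of a gene per 1000000 UMIs, both summed over the cells), against 0.025 and 0.050 CPM in epithelial cells. PTPRC and ACTA2 were at 0 UMIs there, and PECAM1 had 4.

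SPARC and DCN were far higher in the COL-positive cells, ABI3BP was higher at a low count, and POSTN and CCN2 were not. Among 2406 genes that reached 50 CPM in either compartment, 14.3% were 2-fold or more higher in COL-positive cells and 9.68% were 2-fold or more lower, counted on CPM with 10 added. All 5 genes reached that level, and SPARC, DCN and ABI3BP were among the higher ones. DCN and ABI3BP reached it only in COL-positive cells, where they could only be called higher, so their number says nothing beyond their values.

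SPARC stood at 12493 CPM (1874 UMIs) in COL-positive and 632 CPM in epithelial cells of anagen, a ratio of 19.8 (18.9 to 20.7). Every COL-positive cell held it, with 2 to 247 UMIs and a median of 56. By number of molecules the epithelium carried 94.6% of all SPARC UMIs in anagen, 95.4% in catagen and 98.9% in telogen. These shares were close to those of all genes together. Epithelial cells held 79786932 of 82816430, 48560322 of 51537357 and 101801970 of 103430933 UMIs of the kept cells.

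DCN showed the widest gap, at 3973 CPM (596 UMIs) against 39.5 CPM, a ratio of 101 (92.1 to 110). It was present in 27 of 28 cells, with 0 to 97 UMIs and a median of 16. The 28 cells held 14.5% of the DCN UMIs of the library, whereas the epithelial cells held 76.8% and the cells in neither group 8.61%. The ratio depended on the keratin limit of the gate. With at least 50 keratin UMIs asked of an epithelial cell, the log2 ratio was 7.73 in place of 6.65.

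ABI3BP was counted with 9 UMIs in 7 of the 28 cells, or 60.0 CPM, against 10.0 CPM in epithelial cells, a ratio of 5.98 (2.73 to 11.4). CCN2 was at 180 CPM (27 UMIs) against 236 CPM, a ratio of 0.763 (0.503 to 1.11). Its locus overlaps an uncharacterized protein-coding gene in RefSeq, an annotation used here for names only. Whether that overlap affects the counts was not tested. The interval of CCN2 includes equality, so no difference was detectable at this depth. This turned on 1 cell, since without the cell that held 9 of the 27 UMIs the log2 ratio was -0.93 (-1.68 to -0.27), below equality. That cell was chosen for its high count, so leaving it out was bound to lower the ratio, and no difference is read from it.

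POSTN was at 840 CPM (126 UMIs) against 794 CPM, a ratio of 1.06 (0.881 to 1.26), but this level was an average of unlike cells. COL-positive cells fell into 14 whose keratin share was under 25% of the epithelial median (0.0226% to 0.625% of UMIs) and 14 above it (1.25% to 2.48%). The 14 keratin-poor cells held 0 to 2 POSTN UMIs each, 6 in all, and 9 of them held 0. The 14 keratin-rich cells held 120, of which 94 lay in 2 cells with 59 and 35.

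On that split POSTN was at 87.2 CPM in keratin-poor and 1478 CPM in keratin-rich COL-positive cells, and the log2 ratio of the former over the epithelium was -3.19 (-4.63 to -2.06). Without the single cell holding 59 UMIs, the log2 ratio for all COL-positive cells was -0.72. SPARC had the opposite order, with 18074 CPM in keratin-poor and 7761 CPM in keratin-rich cells, while DCN was at 4242 and 3745 CPM. CCN2 was at 262 CPM in keratin-poor cells, a log2 ratio over the epithelium of 0.15 (-0.61 to 0.81). LUM was present in 14 of 14 keratin-poor and in 4 of 14 keratin-rich cells, and KRT14 was at 668 and 8253 CPM. The part that captured epithelial RNA or joined cells have in the keratin-rich values was not tested.

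**Figure D1:**
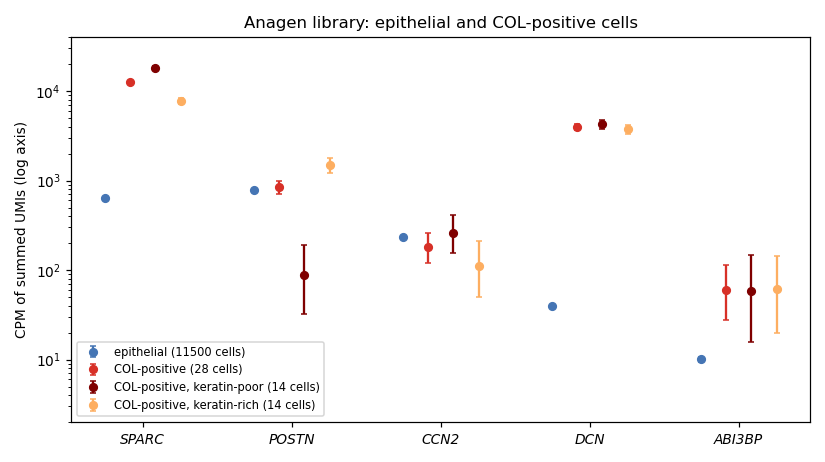
CPM of summed UMIs (log axis) of the 5 genes in the anagen library, in epithelial cells, in all COL-positive cells and in these split by keratin share; bars are 95% exact Poisson intervals. SPARC and DCN are higher in all 3 sets of COL-positive cells than in the epithelium, and POSTN is below the epithelium in the keratin-poor cells and above it in the keratin-rich ones.

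**Figure D2:**
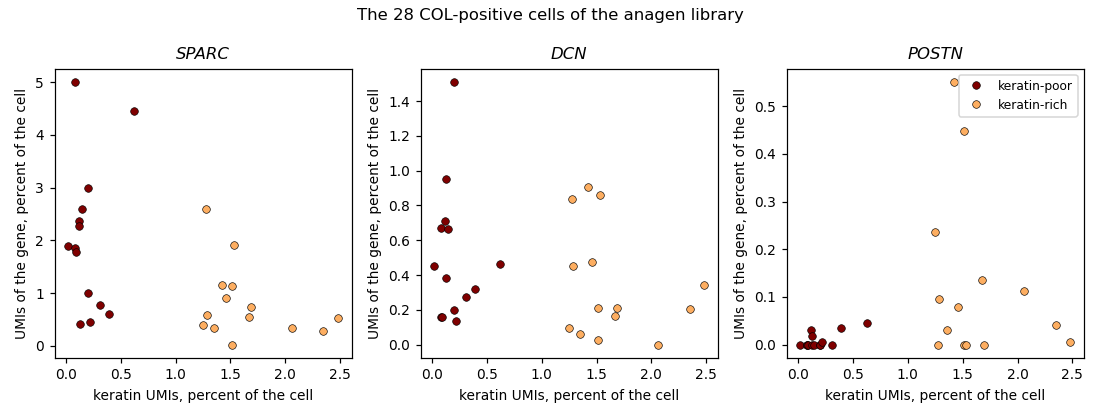
UMIs of SPARC, DCN and POSTN as a percent of all UMIs of the cell (vertical axes) against the percent of the cell's UMIs from 12 keratin genes (horizontal axes), 1 point for each of the 28 COL-positive cells of anagen. SPARC and DCN are spread over both sets of cells, and POSTN is close to 0 in every keratin-poor cell.

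The remaining 3 COL-positive cells also held SPARC and DCN. The catagen cell held 2 SPARC and 3 DCN UMIs and no POSTN. The telogen cells held 266 and 8 SPARC UMIs, 24 and 7 of DCN, and 18 and 1 of POSTN, the cell with 18 carrying 290 KRT14 UMIs.

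Genes of the lists were called by the same limit. Many of them reached 50 CPM in COL-positive cells alone and could then only be called higher, so the numbers of such genes are given as a description. Of 11 small leucine-rich proteoglycans other than DCN, 4 reached the level (ECM2, LUM, OGN and ASPN), all of them only in COL-positive cells. ECM2 was at 440 CPM (66 UMIs) against 0.088 CPM. BGN (biglycan), of these 11 the gene with the most UMIs in the epithelium, was at 6.27 CPM there and at 0 UMIs in the 28 cells. In the 28 cells 1 UMI stands for 6.67 CPM, so a count of 0 cannot show that BGN was lower there than in the epithelium.

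Of 16 fibrillar and fibroblast matrix genes with a row, 12 reached the level, again only in COL-positive cells. The highest level of the 12 was that of COL5A1, at 1120 CPM against 12 CPM. Of 21 other matricellular genes 4 reached it, in COL-positive cells only, among them CCN1 with 113 against 38.6 CPM and TGFBI with 80.0 against 24.6 CPM. FBLN1 and FBLN2, chosen after their values were seen, complete the 4, with 660 and 527 CPM.

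Genes that reached the level in the epithelium could be called either way, and they divided between the compartments. Among 15 receptors with a row these were LRP1, ITGB5 and ITGA6. LRP1, an endocytic receptor that binds CCN2 and DCN, was at 860 against 51.2 CPM, and ITGB5 at 213 against 66.7 CPM. ITGA6, the laminin receptor subunit of basal keratinocytes, was lower in COL-positive cells, with 4 UMIs or 26.7 against 125 CPM. The basement membrane gene COL17A1 was at 140.0 against 219 CPM, the TGF-beta genes SKIL and TGIF1 at 113 against 144 and at 26.7 against 70.7 CPM, and the YAP and TEAD response gene F3 at 1047 against 2090 CPM. Of these 4 only TGIF1 was past 2-fold lower.

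Within the epithelium the 5 genes were not all distributed alike, and DCN stood apart from the others. Cells were clustered with the 5 genes left out, and 19 of 26 clusters held at least 50 cells in each library. Orders of levels below are over these 19. Clusters are named below by their leading genes, and by the name of a cell class with the suffix -like where at least 3 markers fixed for this work were raised. Free RNA adds UMIs to every droplet, so the low end of each distribution need not be expression.

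Among the 19 clusters SPARC was highest in the cluster led by IGFBP5, SFRP1 and CXCL14 (cluster 4, HS-like, after the hair shaft class of the study), which also expressed LGR5 and LHX2. Its level there was 3974 CPM in anagen, 2628 in catagen and 2996 in telogen, against medians over the 19 clusters of 307, 278 and 558 CPM. Among the 19, cluster 4 ranked first for SPARC in all 3 libraries, and its interval did not overlap that of the next cluster. The lowest levels, 88.1 CPM in anagen and 70.1 in telogen, were in the suprabasal cells with KRT77 (cluster 18), and in catagen 37.4 CPM in the S100A12 and S100A7 cells (cluster 5, IFE-DC-like). The name HS-like follows the study's markers LHX2 and IGFBP5, and hair keratins go against it. The hair cortex keratin KRT85 was at 166, 46.4 and 16.9 CPM in cluster 4, against 973, 271 and 395 CPM in cluster 12, described below. KRT14 was at 14558, 11061 and 19625 CPM in cluster 4.

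At 1500 UMIs per cell, SPARC was detected in 97.0%, 85.7% and 88.1% of cluster 4 cells in anagen, catagen and telogen (99.3%, 87.2% and 93.6% before thinning). In the inner root sheath cells with KRT27 and KRT71 (cluster 11, IRS-like) the shares were 23.0%, 6.57% and 11% (45.5%, 17.4% and 36.6% before thinning). Median depths were 3851, 2223 and 4283 UMIs in cluster 4 and 4472, 6749 and 12495 in cluster 11, and thinning left out 0, 405 and 72 cells of the former and 0, 45 and 27 of the latter.

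SPARC was also high outside the SFRP1 cells. In the CCL27 and IL1R2 cells (cluster 6, epidermal basal-like) it was at 2024, 872 and 2661 CPM. The MCM3 cells (cluster 16, S phase-like) had 1247, 911 and 1829 CPM of SPARC. In the cells with ACTA2 and TAGLN among their leading genes (cluster 21, DS-like, after the dermal sheath class of the study; 85, 100 and 41 cells) it reached 2487, 3333 and 2791 CPM, above cluster 4 in catagen. With 41 cells in telogen this cluster is not one of the 19. These cells held almost none of the fibrillar collagens of the gate, while COL17A1, a basement membrane gene, was at 194, 328 and 216 CPM. COL3A1, LUM and COL6A1 were at 0 UMIs in all 3 libraries, COL1A2 had 4, 0 and 0, and 91%, 71% and 88% of the cells passed the keratin gate. A count of 0 there allows a level of up to 4.37, 6.18 and 9.38 CPM. DCN there was at 7.28, 30.9 and 3.13 CPM. The cluster led by COL1A2 and PECAM1 (cluster 22), which mixed collagen-expressing and endothelial cells, had SPARC at 4532 CPM in anagen, above cluster 4, where 27 of its 94 cells were COL-positive, and at 535 and 1778 CPM in catagen and telogen.

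POSTN was shared by several clusters, of which only cluster 6 was named basal-like. In the CCL27 and IL1R2 cells (cluster 6, epidermal basal-like) it stood at 3433, 2322 and 3211 CPM, and in the SFRP1 cells at 2323, 2983 and 2819 CPM. Cluster 6 ranked first in anagen and telogen and cluster 4 in catagen, each with intervals apart from the other. The EMP3 and SCUBE2 cells (cluster 0, unnamed) followed with 1931, 1623 and 2345 CPM, and the MCM3 cells (cluster 16, S phase-like) with 2003, 1798 and 1718 CPM. The KRT1 and CHP2 cells (cluster 2, unnamed) had 1394, 651 and 974 CPM. The PTHLH and SEMA3E cells (cluster 7), also HS-like, had only 622, 1072 and 855 CPM, and the TPM1 and S100A2 cells (cluster 9) 355, 170 and 223 CPM.

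CCN2 was highest in the SFRP1 cells in every library, at 1029, 1262 and 824 CPM. The second cluster differed between libraries. It was the PTHLH cells in anagen with 516 CPM and in telogen with 177 CPM, and the CCL27 cells in catagen with 900 CPM. In anagen the PTHLH, CCL27 and EMP3 clusters (516, 499 and 481 CPM) could not be told apart in order, since the intervals of neighbours overlapped.

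ABI3BP was the most restricted of the genes of the SFRP1 cells. It was at 117, 94.5 and 60.9 CPM there, against medians over clusters of 3.61, 2.44 and 2.1 CPM, and this cluster held 44.3%, 60.9% and 42.8% of the ABI3BP UMIs of the libraries. The TPM1 and S100A2 cells followed with 36.4, 34.9 and 15.6 CPM, with an interval that overlapped that of the next of the 19 clusters in catagen and telogen. Outside the 19, the DS-like cells had 17.5, 41.2 and 40.6 CPM. In the CCL27 cells, where POSTN was highest, ABI3BP had 6, 2 and 2 UMIs in all.

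Against other epithelial cells, SPARC, POSTN, CCN2 and ABI3BP were past 2-fold higher in cluster 4 in every library, where 4.31% of 2551 genes were. Cluster 4 was singled out for its high levels of these genes, so their being higher there was largely set by that choice. Their number is given as a description. ABI3BP reached 50 CPM in cluster 4 and not in those other cells, so it could only be called higher. DCN did not reach that level. Classes were ranked without the DS-like one, which is named after a dermal class and whose SPARC level was above that of the HS-like class in catagen and telogen. Among the others the HS-like class (clusters 4 and 7) had the highest SPARC level as a mean of the libraries. That level was 5.59, 4.77 and 2.96 times that of other epithelial cells in anagen, catagen and telogen. For CCN2 the HS-like ratios were 4.19, 3.02 and 10.5, and for ABI3BP 14.5, 11.7 and 12.2. The HS-like class did not lead in every library. The epidermal basal-like class was above it for SPARC in telogen (2661 against 2346 CPM) and for CCN2 in catagen (900 against 870 CPM). POSTN was 5.30, 3.13 and 3.85 times higher in the epidermal basal-like cells than in other epithelial cells.

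DCN followed another course. Among the 19 clusters it was highest in the cluster led, after DCN itself, by FABP7, DPP4 and UHRF1 (cluster 12, S phase-like), with 352 CPM in anagen, 588 in catagen and 170 in telogen. The H1-1 and TOP2A cells (cluster 10) and the CENPF and TOP2A cells (cluster 8), both mitotic-like, came next in anagen with 184 and 85.5 CPM and in catagen with 351 and 287 CPM. In telogen they had 28.4 and 35.8 CPM, below the CCL27 cells with 50.3 CPM. DCN did not go with every cycling cluster, since the MCM3 cells (cluster 16), also S phase-like, had 12.1, 66.3 and 7.81 CPM. The SFRP1 cells held 8, 10 and 6 DCN UMIs in all, or 2.52, 2.31 and 1.32 CPM. Medians over the 19 clusters were 8.62, 6.79 and 2.19 CPM, and the SFRP1 cells were the lowest in anagen only.

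DCN in cluster 12 came with DPP4, which also marks some fibroblasts, but without the fibrillar collagens and lumican. LUM, COL3A1 and COL6A1 were at 0 UMIs in 444, 375 and 136 cells, and COL1A2 had 1, 0 and 0 UMIs. A count of 0 in anagen allows a level of up to 0.848 CPM, where DCN was at 352 CPM. The same cells held KRT85, a hair cortex keratin, at 973, 271 and 395 CPM, and FABP7, a fatty acid binding protein, at 706, 194 and 251 CPM. Cells of the cluster with a DCN UMI made up 26.4%, 43.5% and 9.60% at 1500 UMIs per cell (48.2%, 62.9% and 25% before thinning, at median depths of 7481, 5063 and 8288 UMIs), against 1.72%, 1.88% and 0.847% of IRS-like cells. The 3 clusters with the highest levels in each library held 68.7%, 86.9% and 53.0% of its DCN UMIs, the 3 being clusters 12, 10 and 8 in anagen and catagen and clusters 12, 6 and 8 in telogen.

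**Figure D3:**
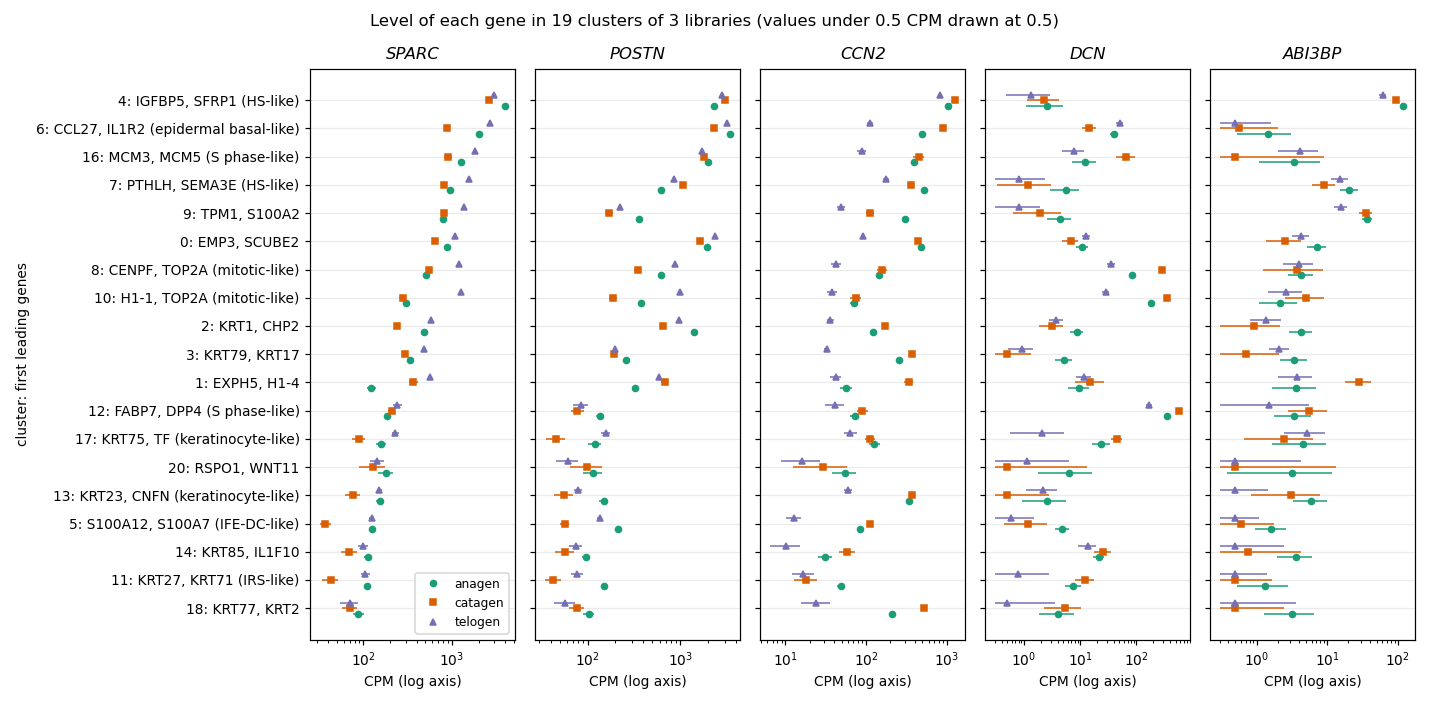
CPM (log axis) of each gene in the 19 clusters with at least 50 cells in every library, ordered by mean SPARC level, with 95% exact Poisson intervals. SPARC, POSTN, CCN2 and ABI3BP are high in cluster 4. SPARC and POSTN are also high in clusters 6 and 16 and POSTN in cluster 0, and DCN peaks in clusters 12, 10 and 8.

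Over 66 sums of a cluster in a library, which share libraries and depth, Pearson's r of log2 CPM (10 added) describes how alike the patterns were. The sums were those with at least 50 cells and were not only epithelial. They took in the COL1A2 and PECAM1 cluster in anagen (94 cells) and cluster 24 in telogen (51 cells), led by RGS1, VIM and LCP1. SPARC and POSTN had the highest r among the 5 genes (0.82), SPARC and ABI3BP had 0.62, SPARC and CCN2 had 0.52, and DCN had between -0.06 and 0.15 with each of the others. In 3942 genes compared, the genes most like SPARC were COL14A1, CDH13, DST, PDLIM1 and ITGA6 (r from 0.88 to 0.83). Those most like POSTN were COL17A1, TNS4, LAMA3 and DST (0.89 to 0.83), followed by SPARC itself.

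CCN2 was most like CCN1 (0.79), the other CCN gene of the list of YAP and TEAD response genes, and then TLE5, LPP, CPD and PTPN14. DCN was most like FBLN1 (0.85), PALM, RAMP2, DPP4 and FAM171B, and ABI3BP was most like GRIA4 (0.89), LGR5, PPP2R2B, TCF7L1 and COL4A2. RAMP2 was among the leading genes of the COL1A2 and PECAM1 cluster. FBLN1 was at 660 CPM in COL-positive and 5.23 CPM in epithelial cells of anagen. The values for DCN and FBLN1 ranged from 0.61 to 0.90 within single libraries, and those for ABI3BP and LGR5 from 0.88 to 0.89. For CCN2 they were 0.70 to 0.78 with CCN1, 0.63 to 0.74 with TLE5 and 0.62 to 0.68 with PTPN14, below the values over all libraries. With LPP they were 0.67 to 0.74 and with CPD 0.65 to 0.81, on both sides of the value over all libraries (0.71 for each).

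The SFRP1 cells carried basement membrane genes along with the 4 members. Of 6 such genes that reached 50 CPM, 5 were past 2-fold higher there in every library and 0 lower, among them COL17A1 (573, 779 and 432 CPM), LAMA3 (208, 319 and 234 CPM) and COL4A1 (152, 130 and 96.7 CPM). COL17A1 was not particular to these cells, since the CCL27 cells had 920, 779 and 724 CPM. Genes that reached the level only in cluster 4, COL4A1, LAMB3, COL4A2 and BGN among them, could only be called higher. BGN, at 84.1, 46.9 and 61.3 CPM, was the only small leucine-rich proteoglycan past that limit. Of the fibrillar and fibroblast genes COL14A1, COL5A1 and COL5A2 passed it, 3 of 4, and of 5 receptors 0 did.

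Within cluster 4, detection of the members in the same cell was close to the product of their single shares. At 1500 UMIs SPARC and CCN2 were found together in 47.8%, 46.7% and 38.1% of cells, where the products were 48.2%, 47.0% and 39.7%. SPARC was in 97.0% of these cells in anagen, so its joint share there could differ little from the product. For POSTN and ABI3BP the shares were 12.6%, 7.77% and 8.10% and the products 13.6%, 8.77% and 8.16%.

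Between stages the levels of CCN2 and DCN over all epithelial cells were lowest in telogen and those of SPARC and POSTN highest, the latter by less than 2-fold. For POSTN most clusters went the other way against anagen, as given below. SPARC in epithelial cells was at 632, 606 and 919 CPM in anagen, catagen and telogen, and POSTN at 794, 856 and 939 CPM. For SPARC, telogen was 1.52 times catagen and 1.45 times anagen. ABI3BP was at 10.0, 12.2 and 6.29 CPM. In catagen over anagen 2.15% of genes were 2-fold or more higher, and 0 of the 3 members at the level (SPARC, POSTN and CCN2) were.

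CCN2 was at 236 CPM in anagen, 377 in catagen and 89.9 in telogen. It was the only one of the same 3 genes past 2-fold lower in telogen, where 6.52% of genes were so against anagen and 7.2% against catagen. Telogen over anagen was -1.39 (-1.43 to -1.36) and telogen over catagen -2.07 (-2.1 to -2.03) on the log2 scale. The lower telogen level was present in 19 of 19 clusters against anagen, with every interval below 0, and past 2-fold in 14.

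The difference was uneven across clusters. In the CCL27 cells CCN2 went from 499 CPM in anagen to 113 in telogen, a log2 ratio of -2.14 (-2.28 to -2.0). In the SFRP1 cells it went from 1029 to 824 CPM, a log2 ratio of -0.32 (-0.39 to -0.25), the smallest of the 19. Cluster 4 held 17% of the CCN2 UMIs of anagen and 40.2% of those of telogen.

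CCN1, the nearest relative of CCN2, was at 38.6, 80.0 and 21.6 CPM in epithelial cells. Among other YAP and TEAD response genes, F3 was at 2090, 1372 and 1009 CPM and CRIM1 at 83.3, 167 and 88.4 CPM. Of the list, 1 of 2 genes at the level was past 2-fold lower in telogen than in anagen, and it was F3. Of TGF-beta genes 0 of 2 were, with SKIL at 144, 131 and 98.1 CPM.

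Immediate-early genes, which tissue dissociation can raise, had the same order of libraries as CCN2. Their 8-gene sum, a list added after the CCN2 values were seen, was 4496, 6731 and 2371 CPM in epithelial cells, and 7 of 8 genes were lowest in telogen and 8 of 8 highest in catagen. JUN was at 2489, 3280 and 1076 CPM and ATF3 at 598, 777 and 211 CPM. In the SFRP1 cells, where CCN2 differed least, the sum was 5007, 5586 and 1880 CPM. Their part in the result was not tested.

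DCN in epithelial cells was at 39.5, 28.5 and 10.4 CPM, under the 50 CPM asked of a gene for the 2-fold count. Telogen over anagen was -1.92 (-2.02 to -1.82) on the log2 scale. Catagen over anagen was -0.47 (-0.56 to -0.38) in these cells, yet DCN was higher in catagen in each of the 3 clusters that carried most of it. Cluster 12 had a log2 ratio of 0.74 (0.62 to 0.86), cluster 10 of 0.93 (0.79 to 1.06) and cluster 8 of 1.75 (1.55 to 1.94).

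The keratin gate kept 40% of cluster 12 cells in catagen and 82% in both other libraries. Over all kept cells DCN was at 49.5, 51.6 and 11.3 CPM, and the log2 ratio of catagen over anagen was 0.06. Telogen was lower than anagen in clusters 12, 10 and 8, with log2 ratios of -1.05, -2.70 and -1.25, and not in the CCL27 cells, with 0.32 (0.02 to 0.61). Clusters 10 and 8 also differed between libraries in marker genes. In cluster 10 KRT14 was at 5400, 2920 and 22750 CPM in anagen, catagen and telogen, and FABP7 at 314, 103 and 55.8 CPM. In cluster 8 KRT14 was at 8555, 7164 and 21544 CPM and FABP7 at 211, 120 and 25.3 CPM. The part of such differences between the cells in the ratios of these clusters was not tested.

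By cluster, SPARC was higher in telogen than in catagen in 18 of 19, with a median log2 ratio of 0.91 and past 2-fold in 8, and higher than in anagen in 12 of 19, with a median of 0.38. The SFRP1 cells were lower in telogen than in anagen, with a log2 ratio of -0.41 (-0.44 to -0.37), and higher than in catagen, with 0.19 (0.15 to 0.23). In cluster 10 SPARC was at 307, 278 and 1269 CPM and in cluster 8 at 511, 555 and 1211 CPM, against 3974, 2628 and 2996 CPM in cluster 4. As given above, KRT14 was also highest in telogen in clusters 10 and 8. POSTN was lower in telogen than in anagen in 12 of 19 clusters, each with an interval below 0, and higher in 7, with a median log2 ratio of -0.37. Against catagen it was higher in telogen in 13 of 19, with a median of 0.39. Cluster 10, with POSTN at 375, 189 and 980 CPM, had the highest ratio of the 19 in both comparisons. SPARC was lower in catagen than in anagen in 15 of 19 clusters, with a median log2 ratio of -0.45, whereas over all epithelial cells the ratio was -0.06. Cluster 4, where SPARC was highest, held 1731 of the 12062 kept catagen cells and 705 of the 11987 anagen cells. ABI3BP in cluster 4 was lower in telogen than in anagen, at a log2 ratio of -0.95 (-1.18 to -0.72).

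**Figure D4:**
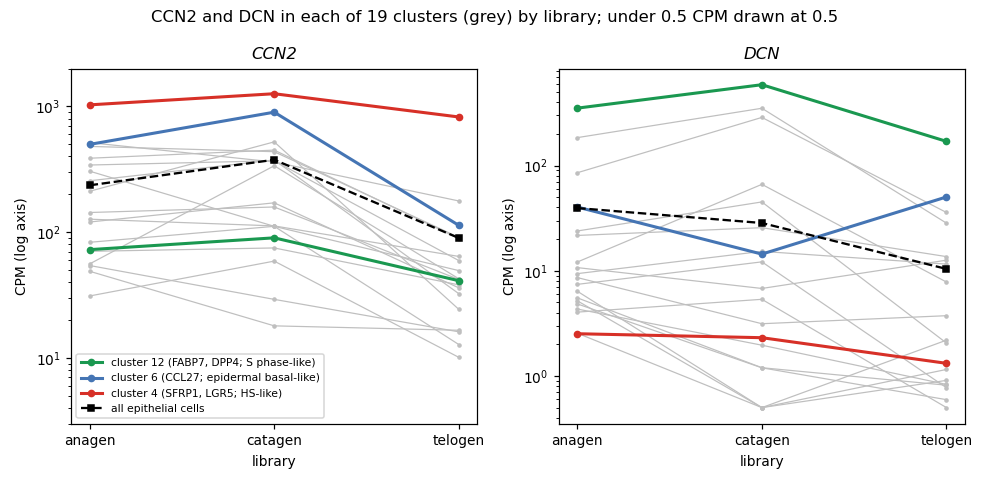
CPM (log axis) of CCN2 and DCN by library in each of 19 clusters, with clusters 4, 6 and 12 and all epithelial cells marked. CCN2 is lower in telogen than in anagen in every cluster and least so in cluster 4, and DCN is higher in catagen than in anagen in cluster 12 while the line of all epithelial cells falls.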

How the data were processed

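Each of the 3 libraries was deposited as whole-number UMI counts per gene and cell barcode. Per the labels the authors processed the reads with Cell Ranger 2.1.1, while the file headers name 4.0.0 (anagen), 3.1.0 (catagen) and 6.0.2 (telogen); the genome build is not given in the sources used here. The stage came from the label, since the protocol text of the catagen sample names anagen. Libraries held 12000, 12124 and 14573 cells and 82862998, 51647865 and 103511775 UMIs, with medians of 5256, 3350 and 5584 UMIs per kept cell.

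The members and the gene lists were chosen with earlier results of these data known. Cells with at least 200 genes were kept (146 left out) and doublets were left in. Cells were integrated and clustered in Seurat 5.3.0 (R 4.3.3) with 2000 variable genes, 30 components, 20 neighbours and a resolution of 0.8, with the 5 members left out. A cluster was named where at least 3 markers were raised 1.5-fold and a marker was among its 10 leading genes. Clusters mixing non-epithelial markers stayed unnamed. So did clusters with at least 3 of CD74, HLA-DRA, LCP1, FCER1A and RGS1 among the leading genes, unless named immune. These rules on unnamed clusters were set after the clusters were seen. In all, 12 of 26 clusters were named, leaving 55.6% of cells in unnamed ones.

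UMIs were summed per group and library and given as CPM, with exact Poisson intervals; ratios have exact conditional binomial intervals and shares Clopper-Pearson intervals (scipy 1.17.1). These cover counting error only. Genes past 2-fold were counted on CPM plus 10, among genes at 50 CPM or more in either group, and the code was tested on simulated data. An edgeR test over libraries with at least 10 COL-positive cells had been planned, but 1 library qualified, so no test was run. A count of 0 was read as allowing up to 3 UMIs. Shares were compared after thinning cells to 1500 UMIs. Named genes were the 5 members, up to 4 genes of each list with the most UMIs, and the 5 genes most like each member. In the yak RefSeq annotation, used for names only, CCN2 overlaps 1 uncharacterized protein-coding locus and ABI3BP 1 lncRNA.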

Additional observations from a re-analysis of the deposited data

Results flagged for a closer look

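Cells in neither compartment had fewer than 10 keratin UMIs or at least 1 UMI of COL1A2, COL3A1, PECAM1, CDH5 or PTPRC, without being COL-positive. They held more of some members than the epithelial cells of the same library, with Poisson intervals that did not overlap. DCN was at 122.6 CPM in anagen, 428.0 CPM in catagen and 49.4 CPM in telogen in these cells. Clusters 12, 10 and 8 held 91.8%, 97.0% and 75.0% of those DCN UMIs. ABI3BP was at 26.6 CPM in catagen, with 59.5% of its UMIs in cluster 4. CCN2 was at 114.2 CPM in telogen, with 37.3% of its UMIs in the COL1A2 and PECAM1 cluster. A difference between stages was not tested, and no group had the 4 libraries that a search for outlying samples needs.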

How the results depend on the processing

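With a single library of enough COL-positive cells, DESeq2, another normalization by TMM, the fit without a library block and leaving out libraries could not be run, and no mesenchymal-like cluster was free of endothelial cells to stand in for the gate. No paired analysis was possible because the labels give no replicate numbers, and the contrast of COL-positive with epithelial cells had enough cells in 1 library; the class ratios were taken within each library and averaged. Pooling the 3 libraries, scaling by the median of gene ratios, leaving out the cell with the most UMIs and using all kept cells were chosen after seeing the data.

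The number of genes past 2-fold between COL-positive and epithelial cells (576) was 1169 with keratin-poor cells and 1575 with no filter on low levels, and within 1.5 times under the other 8 settings. The log2 ratio of SPARC (4.30) was 4.04 and 4.53 with gates of 1 and 5 UMIs, 4.84 in keratin-poor cells, 4.23 with at least 50 keratin UMIs and 4.23 with at least 1000 genes, 4.14 pooled, 4.22 scaled by gene ratios and 4.15 without the top cell. That of DCN (6.65) was 6.38 and 6.86 with those gates, 7.73 with 50 keratin UMIs, 6.47 with 1000 genes, 7.32 pooled and 6.50 without the top cell. POSTN (0.08) was -0.52 with a gate of 5 UMIs, -3.19 in keratin-poor cells, 0.37 with 1000 genes and -0.72 without the top cell, so its direction was not determined. CCN2 ranged from -0.93 (without the top cell) to 0.15 and ABI3BP from 2.21 to 2.70.

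Telogen over anagen, CCN2 (-1.39) was -1.23 with median-of-ratios scaling, -1.13 as a mean of single cells, -1.45 with at least 2500 UMIs, -1.59 with 1000 genes, -1.30 without the top 5% of UMI totals and -1.22 with classes weighted equally. DCN (-1.92) was -1.76 and -1.75 with the first 2, -2.13 over all kept cells and -1.61 with equal classes. Telogen over catagen, CCN2 (-2.07) was -1.75, -1.93, -1.97 and -1.98 with the first 4, -2.02 over all kept cells and -1.48 with equal classes. DCN (-1.45) was -1.13, -0.83, -1.60 and -1.79 with the first 4, -1.25 without the top 5%, -2.19 over all kept cells and -2.57 with equal classes. All of these kept their direction. Telogen over catagen 1 of 35 values took the other sign, that of POSTN, which ranged from -0.00026 to 0.53. SPARC ranged from 0.36 to 1.15 there. Catagen over anagen 7 of 35 values took the other sign, with ranges of -0.36 to 0.23 for POSTN, -0.91 to 0.97 for DCN and -0.40 to 0.36 for ABI3BP. The cause was not tested.

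The leading classes kept their direction in 19 of 19 alternatives. DCN had 3 in place of 4, having no value at a resolution of 0.4. Each class had been chosen for the highest mean level of its gene in these data, so the direction was largely set by that choice. The mean log2 ratio of SPARC (2.1) was 1.46 at a resolution of 1.2, and that of POSTN (2.00) was 1.61 without the top 5%. That of ABI3BP (3.67) was 3.91 and 2.33 at resolutions of 0.4 and 1.2, 3.87 with libraries clustered alone and 2.80 without the top 5%. The COL-positive values are limited by 28 cells, and counts of 10 or fewer, such as ABI3BP there, by depth.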
